A study of Rattus norvegicus with 12 samples.

Results

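In rat kidney, 55 autosomal promoters were covered by long probes and still gave a high methylation signal. They were selected on measured values, from 15221 autosomal promoter regions on the array, of which 4704 had long probes. A promoter region was a run of probes whose neighboring starts lay no more than 1000 bp apart, with at least 3 probes and a span of at most 5000 bp. Long-probe regions had a mean probe length of at least 50 bases. The level of a region was log2(Cy5/Cy3) of the scanned median signals minus the median of the array, averaged over its probes and over 12 arrays, and regions with a level of at least 0.3 were kept. The 55 promoters made up 1.17% of the long-probe regions, whereas 28.3% of the 10517 regions with shorter probes reached the same level. As the level and the probe length chose the promoters, both are given as a description and were not tested. Differences between diet groups were tested, but the mean over 12 arrays holds every group, and a promoter high in 1 group could be chosen through it. Without the mLP-HP arrays 9 of the 55 promoters had a level below 0.3, without the mLP-LP arrays 5, without the mCN-CN arrays 4, and without the mLP-CN arrays 1.

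Methylation of cytosine at CpG sites is a stable mark of DNA, and promoters with methylated CpG sites are often silent. In methylated DNA immunoprecipitation (MeDIP), fragments that carry 5-methylcytosine are enriched with an antibody, and a high ratio of precipitated to input DNA marks DNA with many methylated CpG sites. Fragments with few CpG sites are pulled down poorly even where these sites are methylated. Array makers lengthen probes where the sequence is rich in A and T, so that all probes melt at similar temperatures, and such sequence tends to be poor in CpG. The base composition of these promoters was not measured here, and they are therefore called long-probe promoters.

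The arrays measured DNA from kidneys of 6-week-old males of the stroke-prone spontaneously hypertensive rat (SHRSP), which is an inbred model of high blood pressure. The study asked whether protein intake after birth alters promoter methylation left by a maternal low-protein diet. All 4 groups had 3 arrays each. The mCN-CN group had dams on the control diet (20% casein) in pregnancy and ate the control diet after weaning. In the other 3 groups the dams ate the low-protein diet (9% casein) in pregnancy. Their weaned offspring ate the control diet in the mLP-CN group, the low-protein diet (9% casein) under mLP-LP, and a high-protein diet (40% casein) under mLP-HP. All dams received the control diet from delivery to weaning. The labels number the arrays 1 to 12 and name neither litters nor animals, so that p-values measure the spread between these arrays only. Kidney DNA holds many cell types, and a change in methylation within a cell type and a change in the mix of cell types cannot be told apart.

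Cy5 carried the precipitated DNA and Cy3 the input DNA. Between 69.1% and 74.6% of probes were well above background in both channels of an array. Median signals were 95 to 166 in Cy3 and 94 to 153 in Cy5, and the 3 mLP-CN arrays had the lowest Cy5 medians (94 to 103). The spread of region levels also differed between arrays. Its SD was 0.417 to 0.434 on the mLP-CN arrays and 0.629 to 0.672 on the mLP-HP arrays, with 0.505 to 0.554 on the mCN-CN arrays. The mLP-LP arrays gave 0.594 (replicate 10), 0.436, and 0.465. The arrays came from 5 scans. The mCN-CN replicates 1 and 2 were in scan 1, mCN-CN replicate 3 and all mLP-CN arrays in scan 2, mLP-HP replicate 7 in scan 3, mLP-HP replicates 8 and 9 with mLP-LP replicate 10 in scan 4, and mLP-LP replicates 11 and 12 in scan 5. The groups thus overlapped in scans 2 and 4 only, and neither the mLP-LP nor the mLP-HP group shared a scan with the mLP-CN group.

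The 55 promoters formed a thin edge of the long-probe regions rather than a separate cluster. Their levels ran from 0.30 to 1.22 with a median of 0.38 (quartiles 0.33 and 0.43), beside medians of −0.52 over all long-probe regions and 0.12 over the regions with shorter probes. Only 4 promoters reached 0.5, and 34 lay below 0.4. Mean probe length ran from 50 to 52.8 bases with a median of 50.5, it was exactly 50 in 9 promoters, and 38 lay below 51 bases. The share of regions at or above the level threshold fell along this axis, from 7.68% of the 1628 regions with a mean length of 49 to under 50 bases to 3.23% of the 1176 regions with 50 to under 51 bases. Of the 2101 regions with 53 or more bases, 0 reached the threshold, and the highest of these had a level of 0.257.

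**Figure D1:**
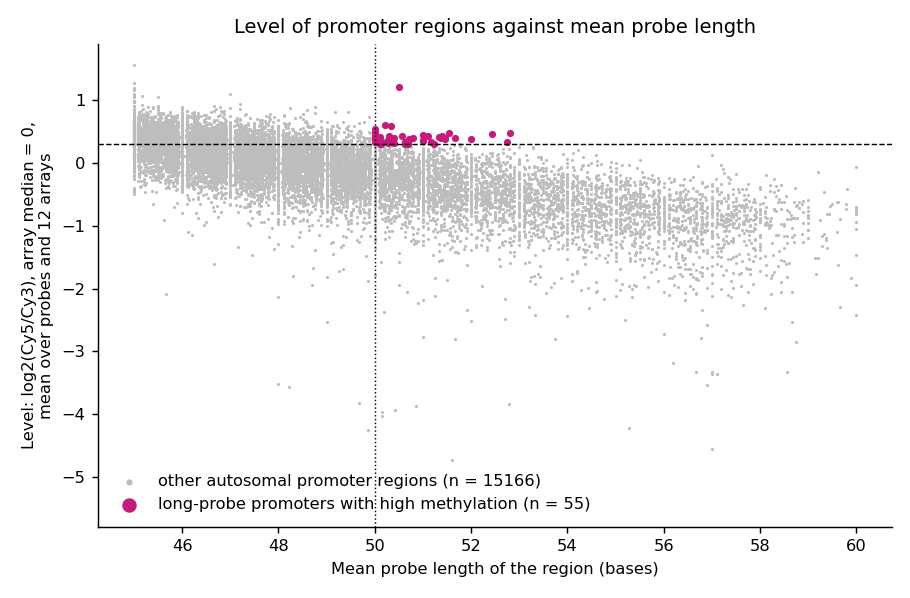
Level of each autosomal promoter region (log2 Cy5/Cy3, array median at 0, mean over probes and 12 arrays) against its mean probe length in bases. The 55 promoters (colored points) lie to the right of the dotted line at 50 bases and above the dashed line at 0.3, at the lower right edge of the high-level regions, and only 1 of them lies above 1.

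The edge set by the threshold was narrow. The 3 promoters just inside it were chromosome 11 from 31380425 to 31381706 (build rn4, as for all positions; level 0.301), chromosome 1 from 207467965 to 207469631 (0.302), and chromosome 18 from 29492074 to 29493527 (0.304). The 3 long-probe regions just outside were chromosome 4 from 111922356 to 111923578 (0.298), chromosome 2 from 35099835 to 35101891 (0.298), and chromosome 5 from 49483038 to 49484726 (0.293). Another 66 long-probe regions lay between 0.2 and 0.3.

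The promoters held 485 probes in all, 3 to 16 per promoter (median 9), over 354 to 2439 bp (median 1639 bp). They were spread over 19 of the 20 autosomes. Chromosome 1 held 6 of its 726 long-probe regions (0.826%), chromosome 4 held 6 of 413 (1.45%), and chromosome 12 held 4 of 48 (8.33%). Chromosome 3 held 2 of 528 (0.379%), and chromosome 16 held 0 of 102. Few lay near each other. The closest pair on chromosome 4, which starts at 159189925 and 159293952, was 102769 bp apart, and the next pairs were 486599 bp apart (chromosome 4, starts 76956184 and 77444416) and 1869536 bp apart (chromosome 13, starts 68507503 and 70378768).

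The neighborhood of the promoters was not high. The nearest other promoter region lay a median of 37388 bp away and had a median level of −0.08. It reached the level threshold for 7 promoters (12.7%), beside 19.9% of all 15221 regions. For 33 promoters the nearest region was a short-probe region below the threshold, for 15 a long-probe region below it, and for 7 a short-probe region above it.

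The 55 promoters differed from the long-probe regions below the threshold in the precipitated DNA more than in the input DNA. The choice by a high Cy5/Cy3 ratio favors such a difference, and also a higher share of probes above background. Both are given as a description and were not tested. In log2 units relative to the median of the array, the median probe of the 55 promoters had −0.16 in Cy3 and 0.55 in Cy5. The long-probe regions below the threshold had −0.26 in Cy3 and −0.93 in Cy5, and the short-probe regions above it had 0.20 and 0.88. Of the 485 probes, 379 (78.1%) were well above background in both channels on at least 6 arrays, against 56.3% in the long-probe regions below the threshold and 87.3% in the short-probe regions above it. Promoters on chromosome 2 from 226731580 to 226731933 (3 probes) and on chromosome 5 from 108915917 to 108916513 (4 probes) had 2 such probes each. These were kept in the counts of promoters, but neither their levels nor their differences are described, and ranges of differences are given over the other 53 promoters. In 4 promoters all probes were well above background, and 0 probes were saturated. Outlier flags marked 69 of the 485 probes on mCN-CN replicate 3. This compares with 0 on mCN-CN replicates 1 and 2 and at most 29 on any other array. Levels include flagged spots, which were set to missing for the diet contrasts.

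Within nearly all of the promoters the level was not even. High and low probes lay within the same promoter, and the high ones were mostly the shortest. All 55 promoters held both 45-base probes and probes of 55 to 60 bases. The 45-base probes of a promoter had a median level of 0.74 and its probes of 55 to 60 bases one of −0.13, and the median difference was 0.90 (range −0.88 to 2.40). The 45-base probes were higher in 47 of the 55 promoters (85.5%). Such a difference was the rule on this array, as it was found in 89.6% of 3680 long-probe regions below the threshold (median difference 1.07), 86.7% of 1108 short-probe regions above it (0.88), and 90.9% of 5063 short-probe regions below it.

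The 55 promoters lay higher than the long-probe regions below the threshold in every length class. Their 45-base probes (n = 193) had a median level of 0.79, against 0.27 in the long-probe regions below the threshold and 0.61 in the short-probe regions above it. At 46 to 50 bases the medians were 0.71, −0.26, and 0.34, and at 51 to 54 bases 0.20, −0.52, and 0.14. Even the 84 probes of 60 bases, with a median of −0.19, lay above those of the long-probe regions below the threshold (−0.95) and of the short-probe regions above it (−0.38). These differences follow in part from the choice by level and were not tested. Of the 60-base probes of the 55 promoters, 44.0% were well above background, compared with 91.7% of the 45-base probes.

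**Figure D2:**
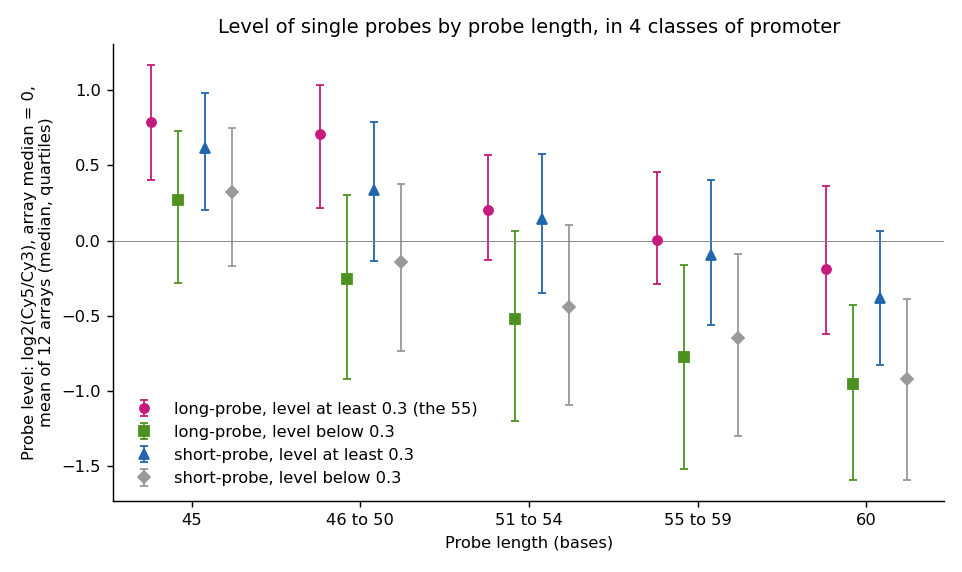
Level of single probes (log2 Cy5/Cy3, array median at 0, mean of 12 arrays) by probe length class in bases, for the 55 promoters and for 3 other sets of autosomal regions. Points are medians and bars run from the lower to the upper quartile. All 4 sets fall from 45 to 60 bases, the 55 promoters from 0.79 to −0.19.

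The unevenness was wide, as in the other sets of regions. The range between the highest and the lowest probe of a promoter had a median of 2.15 on the log2 scale (0.96 to 4.30). This compares with 2.83 in the long-probe regions below the threshold, 2.02 in the short-probe regions above it, and 2.60 in the short-probe regions below it. A probe below 0 was present in 54 promoters, a probe at or above 1 in 50 (90.9%), and a probe below −1 in 21 (38.2%). In the same order of the other sets, 32.7%, 92.2%, and 61.9% of regions had a probe at or above 1. A probe below −1 was present in 94.3%, 23.6%, and 76.2% of them. Even so, the level did not rest on single probes in most of them. The median probe reached 0.3 in 45 promoters and was below 0 in 0 promoters, and more than 50% of the probes were at or above 0.3 in 40. Over the probes of a promoter, which share their arrays and partly their base composition, Pearson's r between length and level had a median of −0.58 and a highest value of 0.39, and it was below 0 in 47 promoters and below −0.5 in 34. The median r of the other sets was −0.46, −0.35, and −0.47 in that order.

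The promoter with the highest level, on chromosome 12 from 34471943 to 34472733, had 4 probes and a level of 1.22, more than 0.5 above any other. Its array levels were 1.29, 1.16, and 1.11 in the mCN-CN group, 1.06, 0.80, and 0.81 in the mLP-CN group, 1.45, 1.16, and 1.20 in the mLP-LP group, with mLP-HP arrays at 1.53, 1.65, and 1.40. All 3 mLP-CN arrays lay below all other arrays, but not on the normalized log2 ratio described below, where they had 1.09, 0.85, and 0.97 beside 1.11, 0.97, and 1.01 on the mCN-CN arrays. Of the diet comparisons below, the promoter passed only in the mLP-HP group compared with the mLP-CN group (difference 0.21, limma adjusted p = 0.0143). Its pair of 45-base probes had levels of 2.46 and 1.62, and its pair of 56-base probes had 0.09 and 0.70. The promoter of rank 2, on chromosome 10 from 84068610 to 84070186, had 9 probes and a level of 0.61. Its arrays gave 0.57, 0.65, and 0.47 in the mCN-CN group, 0.49, 0.47, and 0.47 in the mLP-CN group, 0.65, 0.62, and 0.63 in the mLP-LP group, with mLP-HP arrays at 0.72, 0.79, and 0.75. On this scale the mLP-HP arrays were the highest, whereas their normalized log2 ratios (0.55, 0.54, and 0.55) lay below all 3 mLP-CN arrays (0.58, 0.56, and 0.58). Its 45-base probes averaged 1.01, its probes of 55 to 60 bases averaged 0.01, and its lowest probe, of 59 bases, had −0.77.

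Rank 3, on chromosome 13 from 68507503 to 68509232, had a level of 0.59 and was divided into a high and a low side. Its 4 probes of 45 bases lay together at one end with 1.82, 1.58, 1.18, and 0.79, and the following 5 probes of 52 to 59 bases had 0.08, −0.09, 0.09, 0.10, and −0.26. Array levels were 0.61, 0.70, and 0.82 (mCN-CN), 0.43, 0.39, and 0.36 (mLP-CN), 0.60, 0.54, and 0.54 (mLP-LP), and 0.71, 0.81, and 0.55 (mLP-HP), with the mLP-CN arrays below all others. Even so, the promoter passed in none of the diet comparisons below (limma adjusted p of 0.165 or more). Rank 4, on chromosome 4 from 185976102 to 185977856, had 10 probes and a level of 0.54. Its array levels were 0.67, 0.69, and 0.83 (mCN-CN), 0.40, 0.51, and 0.39 (mLP-CN), 0.53, 0.61, and 0.61 (mLP-LP), and 0.38, 0.46, and 0.40 (mLP-HP). The mCN-CN arrays were the highest on this scale, and on the normalized log2 ratio they overlapped with the mLP-CN and mLP-LP arrays. On that ratio the promoter passed only in the mLP-HP group compared with the mLP-CN group (difference −0.23, limma adjusted p = 0.0063). Its 45-base probes had 1.69, 1.72, 1.00, and 0.95, and its highest longer probe, of 53 bases, had 1.38, while probes of 57, 60, and 52 bases had −0.75, −0.66, and −0.88.

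Rank 5, on chromosome 3 from 102116858 to 102118454, ran against this pattern. Of its pair of 60-base probes, 1 had a level of 1.16 and the other 0.12, and its 45-base probes had −0.08, 1.24, 0.46, and 0.03. The 60-base probe with 0.12 and the 45-base probe with 0.03 were well above background on 0 arrays. The level of the promoter was 0.49, and its arrays gave 0.49, 0.35, and 0.70 (mCN-CN), 0.41, 0.38, and 0.33 (mLP-CN), 0.69, 0.35, and 0.26 (mLP-LP), and 0.46, 0.67, and 0.78 (mLP-HP). The groups overlapped. It was 1 of 8 promoters whose 45-base probes were not the higher ones. From these 8, a further pair was picked after their values were seen. On chromosome 12 from 15580628 to 15582314 the 45-base probes averaged −0.03 and the single probe of 55 to 60 bases had 0.85, and on chromosome 4 from 76956184 to 76957817 the values were 0.38 and 0.92.

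**Figure D3:**
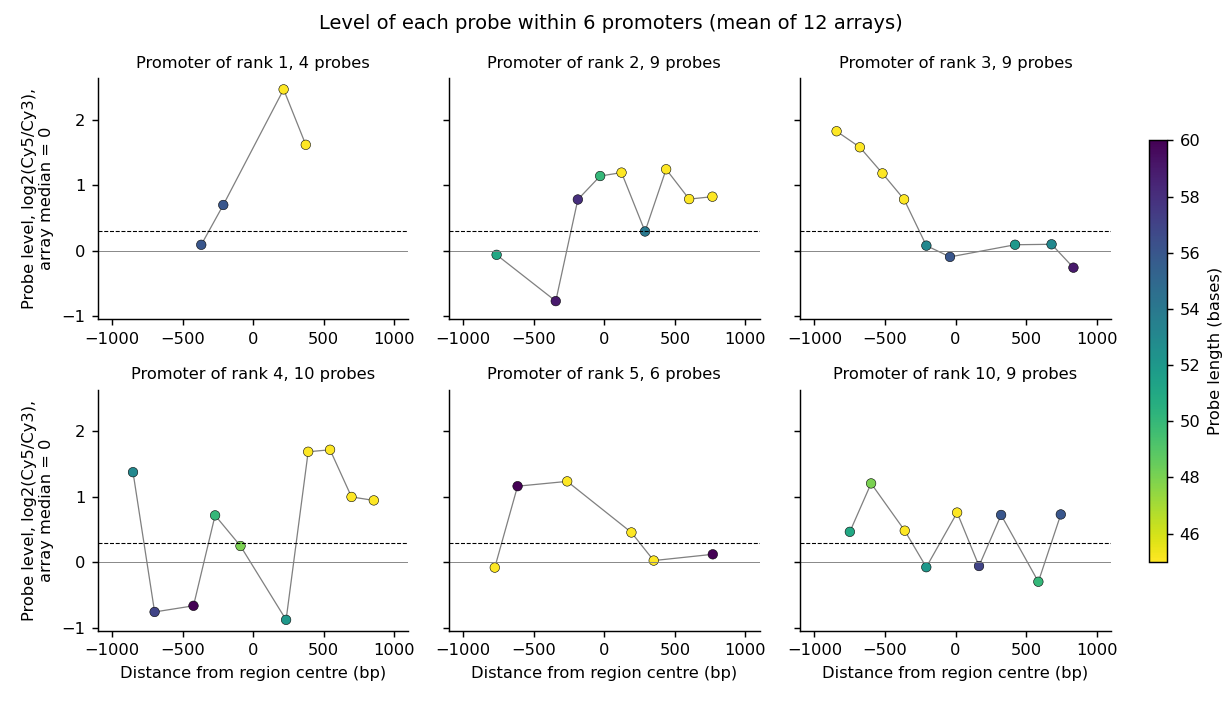
Level of each probe (log2 Cy5/Cy3, array median at 0, mean of 12 arrays) against its distance in bp from the center of the region, for the promoters of ranks 1 to 5 and 10. Color gives the probe length, from 45 to 60 bases, and the dashed line marks 0.3. Short probes form the peaks in ranks 1 to 4, and in rank 5 the higher of a pair of 60-base probes reaches 1.16.

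The longest mean probe lengths were found on chromosome 18 from 81183059 to 81184559 (52.8 bases, 5 probes, level 0.48), on chromosome 5 in the promoter with 2 measured probes, and on chromosome 2 from 185872845 to 185874281 (52.4 bases, 9 probes, level 0.47). The chromosome 18 promoter had 3 probes well above background. Its arrays gave 0.13, 0.41, and 0.92 (mCN-CN), 0.61, 0.59, and 0.43 (mLP-CN), 0.47, 0.55, and 0.43 (mLP-LP), and 0.23, 0.50, and 0.46 (mLP-HP), and the mCN-CN arrays alone spanned the values of all other groups. On the normalized log2 ratio it passed only in the mLP-HP group compared with the mLP-CN group (difference −0.29, limma adjusted p = 0.0088). The chromosome 2 promoter held 1 probe of 45 bases, with 1.07, and its probes of 55 to 60 bases averaged 0.41, so that its level did not depend on the shortest probes alone.

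The promoters, chosen by their mean over these arrays, were not high on each of them. Of the 55, 52 were above 0 on all 12 arrays and 7 were at or above 0.3 on all 12, and a promoter reached 0.3 on 4 to 12 arrays (median 9). The SD of the level over the 12 arrays had a median of 0.13 (0.07 to 0.32), against 0.178 in the long-probe regions below the threshold, 0.153 in the short-probe regions above it, and 0.123 in the short-probe regions below it. The steadiest promoters were on chromosome 2 from 155460794 to 155462472 (SD 0.07) and on chromosome 15 from 40505977 to 40507616 (SD 0.07). The first gave 0.28, 0.30, and 0.45 (mCN-CN), 0.32, 0.37, and 0.30 (mLP-CN), 0.19, 0.25, and 0.38 (mLP-LP), and 0.31, 0.39, and 0.33 (mLP-HP). The second gave 0.39, 0.36, and 0.37, then 0.33, 0.26, and 0.35, then 0.42, 0.54, and 0.41, and then 0.29, 0.38, and 0.40 in the same order of groups. In the first the groups overlapped. In the second the mLP-LP arrays were the highest by a narrow margin, and they overlapped with the mCN-CN and mLP-CN arrays on the normalized log2 ratio (0.29, 0.46, and 0.33 in the mLP-LP group).

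The most variable promoter was rank 10, on chromosome 14 from 44814597 to 44816144 (SD 0.32), followed by rank 1 (SD 0.26). Rank 10 had levels of 0.24, 0.35, and 0.52 (mCN-CN), 0.28, 0.12, and 0.08 (mLP-CN), 0.78, 0.10, and 0.25 (mLP-LP), and 0.92, 0.85, and 0.80 (mLP-HP). On this scale the mLP-HP arrays were high and did not overlap with the other groups, and mLP-LP replicate 10, from the same scan as a pair of the mLP-HP arrays, lay near them. The promoters with the most probes were on chromosome 9 from 74490617 to 74493055 (16 probes, level 0.33) and on chromosome 15 from 57026812 to 57029243 (14 probes, 0.38). The chromosome 9 promoter gave 0.22, 0.35, and 0.29 (mCN-CN), 0.17, 0.29, and 0.26 (mLP-CN), 0.41, 0.44, and 0.42 (mLP-LP), and 0.39, 0.46, and 0.32 (mLP-HP). The chromosome 15 promoter gave 0.34, 0.29, and 0.34, then 0.27, 0.26, and 0.31, then 0.47, 0.40, and 0.39, and then 0.48, 0.53, and 0.51 in that order. In the chromosome 15 promoter the mLP-HP arrays were the highest on this scale, and on the normalized log2 ratio mLP-CN replicate 6 (0.41) lay above all of them (0.39, 0.39, and 0.40).

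**Figure D4:**
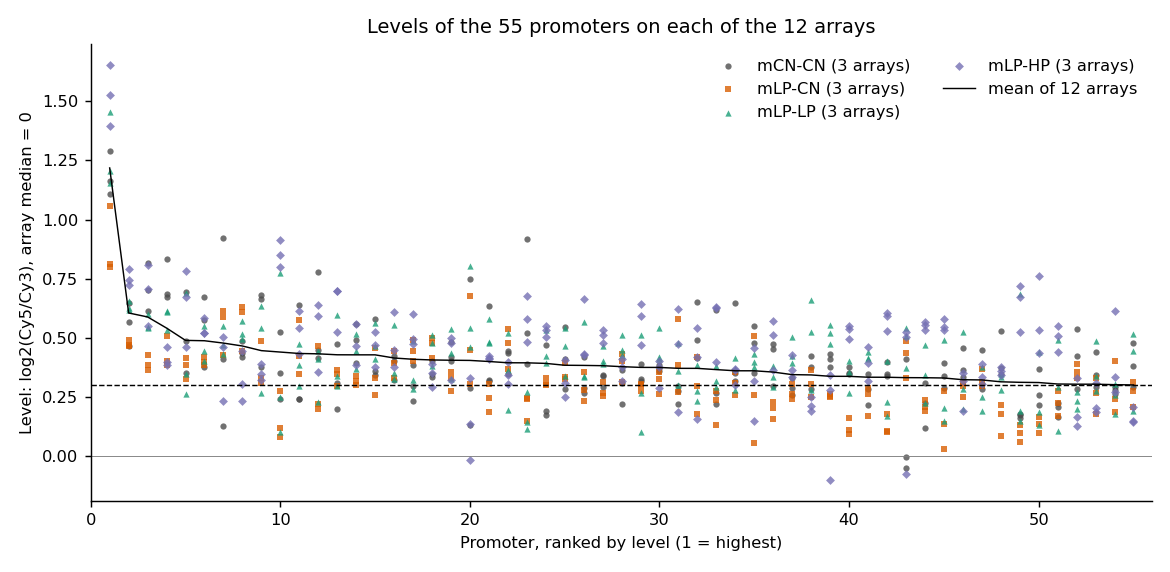
Level of each of the 55 promoters (log2 Cy5/Cy3, array median at 0) on each of the 12 arrays, with promoters ranked by their mean level (black line). Symbols give the diet group, and the dashed line marks 0.3. Most points lie between 0 and 1, and the mLP-HP and mLP-CN arrays of rank 10 are among the widest apart.

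The levels of the 55 promoters differed between arrays. Their median level was 0.35, 0.35, and 0.41 on the mCN-CN arrays, 0.33, 0.30, and 0.30 on the mLP-CN arrays, 0.46, 0.39, and 0.38 on the mLP-LP arrays, and 0.42, 0.50, and 0.43 on the mLP-HP arrays. Between 28 (mLP-CN replicate 5) and 50 promoters (mLP-HP replicate 8) were at or above 0.3 on an array. The short-probe regions above the threshold had medians of 0.28 to 0.33 on the mLP-CN arrays, 0.45 to 0.49 on the mCN-CN arrays, 0.39 to 0.56 on the mLP-LP arrays, and 0.56 to 0.62 on the mLP-HP arrays. The long-probe regions below it had −0.42 to −0.40, −0.60 to −0.43, −0.62 to −0.37, and −0.74 to −0.68 in that order. The mLP-CN arrays had the lowest medians of the 55 promoters and the narrowest spread of region levels. The mLP-LP replicates 11 and 12 were narrower than mCN-CN replicates 1 and 2 and had higher medians. The part of the spread in these medians was not tested. Quantile normalization gives all arrays one distribution. On the normalized log2 ratio, which all diet comparisons below use, the group means of the 55 promoters had medians of 0.38 (mCN-CN) and 0.39 (mLP-CN), against 0.35 (mLP-LP) and 0.35 (mLP-HP).

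For the effect of the maternal diet, the mLP-CN group was compared with the mCN-CN group. Of the 55 promoters, 6 passed (limma adjusted p under 0.05), 3 of them hypermethylated and 3 hypomethylated in the mLP-CN group. Of all 16055 regions tested, 3.38% passed, 1.14% higher and 2.24% lower. At an unadjusted p under 0.05 it was 15 promoters, beside 22.2% of all regions, and the arrays of both groups did not overlap in 14 promoters, beside 25.8% of all regions. The differences of the normalized log2 ratio ran from −0.30 to 0.22 (53 promoters) with a median of 0.01 over all 55, beside −0.02 over all regions, and the median SE of a difference was 0.06. The count of 6 was 17, all lower, without quantile normalization (18.2% of all regions), and 9, all lower, with the filter on dim probes (12.9%). It was 0 in limma without mCN-CN replicate 1, mLP-CN replicate 4, or mLP-CN replicate 6 (11, 12, and 12 at an unadjusted p under 0.05, and 0.330%, 0.367%, and 0.187% of all regions passed). It was 1 without mCN-CN replicate 2, mLP-HP replicate 8, or mLP-HP replicate 9, and it was 2 and 3 without mLP-CN replicate 5 and mLP-HP replicate 7, with 0.386% to 2.39% of all regions in these fits.

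The promoter on chromosome 12 from 10914806 to 10916557 (11 probes) had normalized log2 ratios of 0.39, 0.26, and 0.67 in the mCN-CN group and 0.16, 0.19, and 0.06 in the mLP-CN group. All mCN-CN arrays were higher, and mCN-CN replicate 3 was the highest. The difference was −0.30 (SE 0.08, limma adjusted p = 0.0384), and it was −0.53 with scan as a fixed block (limma adjusted p = 0.000395), a fit in which mCN-CN replicate 3 alone is set against the mLP-CN arrays. The promoter passed in 10 of 23 alternatives and was lower in all 23 (−0.53 to −0.13). It did not pass without mCN-CN replicate 1 or without any single array of the mLP-CN or mLP-HP groups (−0.33 to −0.27).

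The promoter on chromosome 7 from 1292358 to 1293577 (6 probes) had 0.33, 0.37, and 0.43 in the mCN-CN group and 0.07, 0.11, and 0.17 in the mLP-CN group. The groups were clearly apart. The difference was −0.26 (SE 0.05, limma adjusted p = 0.0162), and −0.32 with scan as a fixed block (limma adjusted p = 0.00455). It passed in 13 of 23 alternatives and was lower in all 23, from −0.39 to −0.13, and it did not pass without mCN-CN replicate 1 (−0.28), mCN-CN replicate 2 (−0.26), mLP-CN replicate 4 (−0.24), or mLP-CN replicate 6 (−0.28).

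Of the promoters that rose, that on chromosome 1 from 236769763 to 236771407 (10 probes) had 0.33, 0.32, and 0.38 in the mCN-CN group and 0.50, 0.57, and 0.62 in the mLP-CN group. The groups did not overlap. The difference was 0.22 (SE 0.05, limma adjusted p = 0.0349), and with scan as a fixed block 0.18, which did not pass (limma adjusted p = 0.0702). It passed in 8 of 23 alternatives, its difference ran from 0.00 to 0.38, and it did not pass without any single array of the mLP-CN group, mCN-CN replicates 1 or 2, or mLP-HP replicates 8 or 9 (0.19 to 0.25). The promoter with 2 measured probes on chromosome 5 also passed as higher. The remaining pair that passed was chromosome 13 from 70378768 to 70380447 (difference 0.22, limma adjusted p = 0.0472) and chromosome 6 from 96477845 to 96479618 (−0.23), named after their values were seen. Without the mCN-CN arrays the level of this chromosome 6 promoter was 0.280, below the threshold. Its choice thus favored a fall, which is given as a description. Of the 6 promoters, 0 passed in all 23 alternatives and 5 kept their direction, 2 higher and 3 lower.

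Within scan 2, the mLP-CN arrays minus mCN-CN replicate 3 had a median of 0.02 over the 55 promoters and −0.05 over all regions. With scan as a fixed block 6 promoters passed, 1 higher and 5 lower, beside 11.6% of all regions, and with scan as a random block 6 passed, 3 in each direction, beside 6.29%.

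For postnatal low protein after maternal low protein, the mLP-LP group was compared with the mLP-CN group. Of the 55 promoters, 10 passed, 2 hypermethylated and 8 hypomethylated in the mLP-LP group, beside 19.7% of all regions (11.8% higher and 7.92% lower). At an unadjusted p under 0.05 it was 21 promoters (34.5% of all regions), and the arrays did not overlap in 19 (35.8% of all regions). The share of promoters that passed, 18.2%, was close to that of all regions. The differences ran from −0.26 to 0.23 (53 promoters) with a median of −0.03, beside 0.02 over all regions. This direction depended on the scaling, as without quantile normalization 23 promoters passed, all higher (38.1% of all regions), and with the filter on dim probes 11 passed, 10 of them higher (29.5%). In these fits the median difference over all regions was itself 0.12 and 0.13. The count was 4 without mLP-CN replicate 4 or mLP-CN replicate 6, 5 without mLP-LP replicate 10, and 6 without mLP-LP replicate 12, beside 9.19%, 10.2%, 20.4%, and 10.5% of all regions. With scan as a random block 0 passed in limma (12 at an unadjusted p under 0.05, and 0.349% of all regions passed).

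The larger rise was found on chromosome 6 from 8384066 to 8385594 (10 probes), with 0.05, 0.12, and 0.03 in the mLP-CN group and 0.45, 0.20, and 0.25 in the mLP-LP group. Every mLP-LP array was higher, and replicate 10 was the highest. The difference was 0.23 (SE 0.06, limma adjusted p = 0.0139), and it was 0.26 with scan as a random block, which did not pass (limma adjusted p = 0.134). It passed in 14 of 22 alternatives, was positive in all 22 (0.11 to 0.32), and did not pass without mLP-CN replicate 4 (0.23) or mLP-CN replicate 6 (0.22). The chromosome 7 promoter (start 1292358) had 0.07, 0.11, and 0.17 in the mLP-CN group and 0.37, 0.26, and 0.29 in the mLP-LP group, which did not overlap. Its difference was 0.19 (SE 0.05, limma adjusted p = 0.0217), but −0.05 with the processed signals of the scanner software, and it passed in 11 of 22 alternatives. Without mLP-CN replicate 4, mLP-CN replicate 5, mLP-LP replicate 10, or mLP-LP replicate 12 it did not pass (0.15 to 0.19).

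Of the promoters that fell, that on chromosome 13 from 70378768 to 70380447 (10 probes) had 0.55, 0.54, and 0.65 in the mLP-CN group and 0.41, 0.33, and 0.24 in the mLP-LP group. The arrays did not overlap. It fell by 0.26 (SE 0.06, limma adjusted p = 0.0067), passed in 13 of 22 alternatives, and had a difference of −0.00 without quantile normalization and −0.22 with scan as a random block, where it did not pass (limma adjusted p = 0.201). The promoter with 2 measured probes on chromosome 5 also passed as lower, and its direction turned with centering alone, with processed signals, and with loess. Of the 10 promoters, 0 passed in all 22 alternatives, and 3 kept their direction in all of them.

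For postnatal high protein after maternal low protein, the mLP-HP group was compared with the same 3 mLP-CN arrays. Of the 55 promoters, 26 passed, 10 hypermethylated and 16 hypomethylated in the mLP-HP group. This was 47.3% of the promoters, beside 38.3% of all regions (21.3% higher and 17.0% lower). At an unadjusted p under 0.05 it was 28 promoters (47.6% of all regions), and the arrays did not overlap in 40 (56.4% of all regions). The differences ran from −0.36 to 0.43 (53 promoters) with a median of −0.03, beside 0.01 over all regions. The split between directions changed with the scaling. Without quantile normalization, where the median of all regions was 0.11, 33 promoters passed, all higher (60.2% of all regions), after loess 14, all higher (23.0%), with centering alone 18 higher and 1 lower (45.8%), and with processed signals 10 higher and 2 lower (38.3%). With scan as a random block 7 passed, 5 higher and 2 lower, beside 9.69% of all regions. As both groups shared no scan, scan and diet cannot be told apart.

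The mLP-HP arrays took part in the choice of the promoters. Of the 9 promoters with a level below 0.3 without these arrays, 6 were called, all as higher, which their choice favored. Of the other 46 promoters, 20 were called, 4 higher and 16 lower. This split favors falls, as a level without the mLP-HP arrays leaves out promoters that rise in that group. It too gives no support to a direction. The 4 promoters called in all 22 alternatives were all higher in the mLP-HP group, and 3 of them were among the 9, so that this count gives no support to a direction. The share of all regions called in every alternative was not counted in any comparison, so that such counts have no reference.

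The largest rise was that of rank 10 on chromosome 14 (start 44814597), the most variable promoter. Without the mLP-HP arrays its level was 0.302, just inside the threshold. Its normalized log2 ratios were 0.23, 0.10, and 0.09 on the mLP-CN arrays and 0.65, 0.56, and 0.50 on those of the mLP-HP group, with 0.18, 0.27, and 0.32 in the mCN-CN group and 0.56, 0.15, and 0.27 in the mLP-LP group. The mLP-HP arrays were above all mLP-CN and mCN-CN arrays, and mLP-LP replicate 10 lay among them. The means of the mLP-CN and mLP-HP groups were 0.14 ± 0.08 and 0.57 ± 0.08 (SD, n = 3). The difference was 0.43 (SE 0.08, limma adjusted p = 0.000731), from 0.37 to 0.71 over the alternatives, and 0.40 with scan as a random block (limma adjusted p = 0.0255). All 9 probes were higher in the mLP-HP group, 6 of them without overlap, and the largest probe difference was 1.30, in a 51-base probe. The share of all probes on the array without overlap was not counted.

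The next was the chromosome 6 promoter (start 8384066), whose level was 0.312 with and 0.204 without the mLP-HP arrays, so that its rise is given as a description. It had 0.05, 0.12, and 0.03 on the mLP-CN arrays and 0.48, 0.47, and 0.40 on those of the mLP-HP group. The mCN-CN arrays, with 0.15, 0.16, and 0.13, lay between the groups but nearer to the mLP-CN arrays. The means were 0.07 ± 0.05 and 0.45 ± 0.04 (SD, n = 3), and the difference was 0.39 (SE 0.06). Over the 22 alternatives it ran from 0.29 to 0.62. Of its 10 probes 9 were higher, 7 of them without overlap, with 1.35 in a 56-base probe as the largest difference. The remaining probe, of 55 bases, had a difference of −0.45, also without overlap.

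The other 2 promoters called in all 22 alternatives were named after their values were seen. They too had levels below 0.3 without the mLP-HP arrays, 0.253 and 0.222, and are described without a test. The chromosome 7 promoter (start 1292358) had 0.07, 0.11, and 0.17 on the mLP-CN arrays and 0.43, 0.45, and 0.44 on those of the mLP-HP group, and the mLP-HP arrays reached the values of the mCN-CN group (0.33, 0.37, and 0.43). The difference was 0.32 (SE 0.05), from 0.18 to 0.50 over the alternatives, and 5 of 6 probes were higher, 4 of them without overlap. The remaining probe, of 60 bases, had a difference of −0.37, also without overlap. The mLP-CN arrays of this promoter were below the arrays of all 3 other groups. The chromosome 8 promoter from 74603439 to 74605089 (8 probes) had 0.08, 0.14, and 0.07 on the mLP-CN arrays and 0.51, 0.35, and 0.33 on those of the mLP-HP group, without overlap. Its difference was 0.30 (SE 0.06), from 0.24 to 0.49 over the alternatives, and 6 of 8 probes were higher, 3 of them without overlap.

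**Figure D5:**
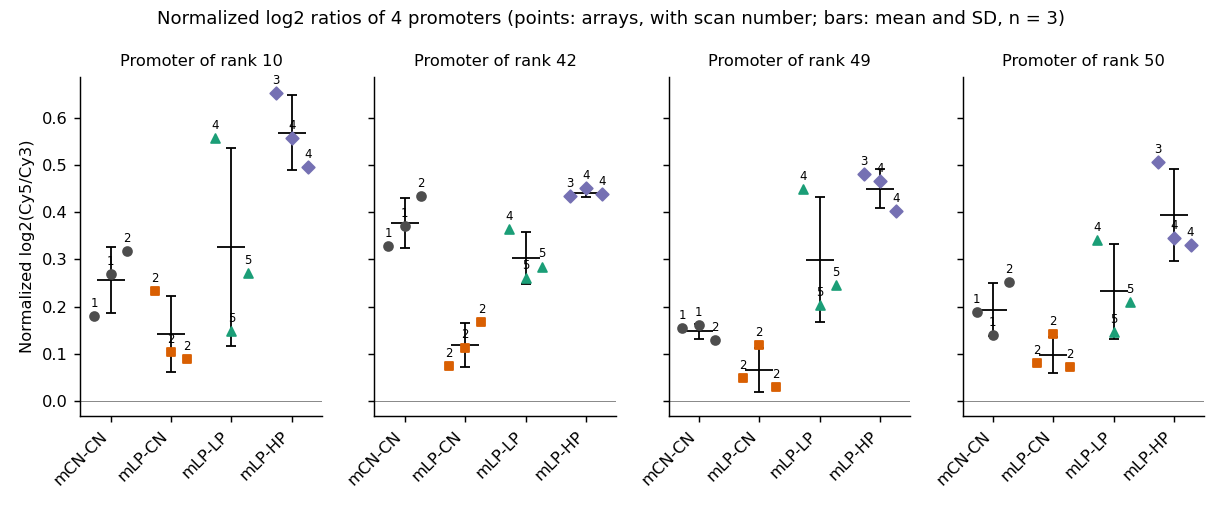
Normalized log2(Cy5/Cy3) of the promoters of ranks 10, 42, 49, and 50 (chromosomes 14, 7, 6, and 8) on each array, by diet group. Points are arrays marked with the number of their scan, and bars give the mean and SD (n = 3). All mLP-HP arrays lie above all mLP-CN arrays, and mLP-LP replicate 10 (scan 4) is the highest mLP-LP array in each of the 4. Ranks 42, 49, and 50 reached a level of 0.3 only with the mLP-HP arrays.

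Of the 16 hypomethylated promoters, 0 passed in all 22 alternatives, and only 2 kept their direction in all of them. Of the 10 hypermethylated promoters, 8 kept their direction, which the choice of some of them favored. The largest falls by the rule for named promoters, on chromosome 2 (start 226731580) and chromosome 5 (start 108915917), were those with 2 measured probes each, and they are not described. Among the promoters with enough measured probes, that on chromosome 2 from 185872845 to 185874281, named after its values were seen, had 0.71, 0.62, and 0.56 on the mLP-CN arrays and 0.21, 0.33, and 0.28 on those of the mLP-HP group. The groups did not overlap, and the mCN-CN arrays (0.46, 0.48, and 0.39) lay between them. The difference was −0.36 (SE 0.06, limma adjusted p = 0.000174), it passed in 19 of 22 alternatives, and it was 0.05 after loess. The chromosome 1 promoter (start 236769763) had 0.24, 0.24, and 0.28 in the mLP-HP group, all below its mLP-CN arrays. It fell by 0.31 (SE 0.05, limma adjusted p = 0.000411) and passed in 17 of 22 alternatives.

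The median difference between groups was not the same in all classes of probe length. In the mLP-HP group compared with the mLP-CN group, the median difference over probes of the 55 promoters was 0.07 at 45 bases, −0.02 at 46 to 54 bases, and −0.27 at 55 to 60 bases, beside 0.18, −0.09, and −0.34 over all regions. For the mLP-LP group compared with the mLP-CN group it was 0.06, 0.02, and −0.14 (all regions 0.14, −0.03, and −0.24), and for mLP-CN against mCN-CN −0.11, −0.00, and 0.14 (all regions −0.11, −0.00, and 0.18). The sets of regions also differed in the direction of the calls in the mLP-HP group compared with the mLP-CN group. Among the 4649 long-probe regions below the threshold, 1570 passed as lower and 294 as higher. Among the 2980 short-probe regions above it, 231 passed as lower and 939 as higher. The 55 promoters, of which 16 passed as lower and 10 as higher, lay between them. The part of probe length in the differences between groups was not tested. In the 4 promoters called in all alternatives, the median difference over the probes was 0.28 to 0.47, and the largest differences lay in probes of 51 bases (rank 10), 45 bases (rank 42), 56 bases (rank 49), and 52 bases (rank 50).

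The 3 comparisons share the mLP-CN arrays, and their calls are not independent. In all, 27 of the 55 promoters passed in at least 1 of them and 28 passed in none. The share of all regions that passed in at least 1 was not counted. In the mLP-HP group compared with the mLP-CN group alone, 38.3% of all regions passed, beside 26 of the 55 promoters. That share is not a reference for the count of 27, which cannot be called high or low.

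When the postnatal diets were compared with each other, 0 of the 55 promoters passed in the mLP-HP group compared with the mLP-LP group, as did 0.0% of all regions (0.0% higher and 0.0% lower). At an unadjusted p under 0.05 limma gave 13 promoters, beside 19.6% of all regions, and the arrays did not overlap in 16 promoters, also beside 19.6% of all regions. The differences ran from −0.26 to 0.24 (53 promoters) with a median of −0.02, beside −0.00 over all regions. Without mLP-LP replicate 10, 12 promoters passed, 7 higher and 5 lower (21.5% of all regions), and 23 passed with array weights, 11 higher and 12 lower (36.3%). The normalized log2 ratio of mLP-LP replicate 10 lay nearer to the mLP-HP mean than to the mean of the other mLP-LP arrays in 37 of the 55 promoters (67.3%), beside 73.9% of all regions. This array shared scan 4 with mLP-HP replicates 8 and 9, and within that scan the mLP-HP arrays minus mLP-LP replicate 10 ran from −0.18 to 0.12 (53 promoters) with a median of 0.01. The smallest p belonged to rank 4 on chromosome 4 (start 185976102), with 0.51, 0.65, and 0.64 (mLP-LP) against 0.35, 0.36, and 0.30 (mLP-HP). The arrays did not overlap, but the difference of −0.26 (SE 0.06) did not pass (limma adjusted p = 0.113). It passed in 5 of 23 alternatives, among them that without mLP-LP replicate 10 (−0.31).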

How the data were processed

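Kidney DNA of 12 SHRSP offspring samples was measured by MeDIP-chip on a rat RefSeq promoter array, 3 arrays in each of 4 groups taken from the labels. The authors deposited Agilent Feature Extraction 11.0.1.1 output with median intensity per spot and channel (uncorrected) and processed intensity, a log10 ratio (not used), spot flags, and a table of log2 values (median-centered, quantile-normalized, and smoothed per the methods, scale not stated) used as an alternative (Spearman's rho with the scanner ratio 0.856 to 0.876). Positions are on rn4.

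Levels followed the selection rule. For diet contrasts, median signals (the files give no means) were corrected with normexp (offset 50), flagged spots (170 to 16509 per array) set to missing, and log2 ratios median-centered, quantile-normalized, and averaged per region. Limma 3.58.1 (R 4.3.3) was fitted to 16055 regions on all arrays (8 residual degrees of freedom, median residual SD 0.0767) with Benjamini-Hochberg adjustment at 0.05, and scan as a random block by duplicateCorrelation (consensus correlation 0.533). The fit was tested on simulated data with independent arrays and no scan effect, which cannot show calls that come from the scans. Python 3.11.15, numpy 2.4.6, and pandas 2.3.3 were used. Alternatives were other background corrections, normalizations, and summaries, the authors' table, scan blocks, array weights, and leaving out each array.

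Named promoters are the 5 highest, the 3 on each side of the threshold, the 3 with the longest probes, the 2 most and 2 least variable, the 2 with most probes, the 3 closest pairs, and per comparison the 2 largest rises and falls that passed without overlap, or else the smallest p. The promoters and lists were chosen with earlier results of these data known. Array number limits the precision. Genes and sequences were not analysed here.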

Additional observations from a re-analysis of the deposited data

How the results depend on the processing

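The number of promoters that met the rule, 55, was 60 with normalized ratios (49 shared), 37 with processed signals (35 shared), 62 with the authors' table (52 shared), and 58 without flagged spots (54 shared), and 52 to 57 with an array left out. Direction and count of the diet differences depended on the scaling, and the cause was not tested. Where it is given above, the share of all regions that passed changed with the setting too. The counts below are therefore not a trait of the 55 promoters alone. In the reported fits 3.38%, 19.7%, 38.3%, and 0.0% of all regions passed, in the order of the comparisons below. For mLP-CN compared with mCN-CN, the 6 promoters became 1 without background correction, 0 with centering only, 0 with processed signals, 17 without quantile normalization, 0 after loess, 2 with the authors' table, 3 with the median over probes, and 15 with array weights (0 to 8 with an array left out). For mLP-LP compared with mLP-CN, the 10 became 0, 0, 0, 23, 0, 0, 6, and 18 in the same order, and 0 with scan as a random block (4 to 14 with an array left out). For mLP-HP compared with mLP-CN, the 26 became 17 without background correction, 12 with processed signals, 14 after loess, 17 with the median over probes, and 7 with scan as a random block (18 to 28 with an array left out). For mLP-HP compared with mLP-LP, the 0 became 8 with centering only, 2 with processed signals, 13 without quantile normalization, 1 after loess, and 23 with array weights (0 to 12 with an array left out, 12 without mLP-LP replicate 10). Where limma gave 0 in these settings, 1 to 19 promoters had an unadjusted p under 0.05.

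The median difference over the 55 promoters, in the order no background correction, centering only, processed signals, no quantile normalization, loess, authors' table, filter on dim probes, and median over probes, was 0.043, −0.087, −0.071, −0.145, −0.081, 0.034, −0.104, and 0.073 for mLP-CN compared with mCN-CN (0.006 as reported, 0.000 to 0.009 with an array left out). It was −0.0094, 0.128, 0.052, 0.141, 0.050, 0.0033, 0.073, and −0.086 for mLP-LP compared with mLP-CN (−0.031, −0.039 to −0.014). It was −0.076, 0.139, 0.095, 0.205, 0.098, −0.074, 0.089, and −0.099 for mLP-HP compared with mLP-CN (−0.030, −0.068 to −0.017). For mLP-HP compared with mLP-LP it was −0.037, 0.055, 0.023, 0.087, and 0.071 in the first 5 settings, 0.0087 with the filter on dim probes, −0.0024 with the median over probes, and −0.0024 and 0.0061 with scan as a random and a fixed block (−0.017, −0.029 to −0.0067). The median over all regions moved by more than 0.1 with the filter on dim probes (−0.12, 0.13, and 0.15 in the first 3 comparisons) and without quantile normalization (0.12 and 0.11 for mLP-LP and mLP-HP compared with mLP-CN).

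Single promoters reversed on chromosome 7 (start 1292358) in mLP-LP compared with mLP-CN, at −0.051 with processed signals, and on chromosome 5 (start 108915917), which rests on 2 measured probes and is given only for this reversal, at 0.030 with centering only, 0.21 with processed signals, and 0.088 after loess in mLP-LP and 0.17 after loess in mLP-HP compared with mLP-CN. No paired analysis was possible because the groups share no replicate numbers. Signals near background limit the long probes most, as 44.0% of the 60-base probes were well above it.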

Other observations

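Outside the autosomes and the span limit, the same level and probe length gave few promoters. On chromosome X, 7 of 286 long-probe regions reached a level of 0.3, and the highest, X from 86357034 to 86358746 (10 probes), had 0.61, with 0.31 to 0.44 in the others. Of 28 long-probe regions on unplaced sequence 0 reached it (highest 0.06), and of 99 autosomal regions longer than 5000 bp 0 reached it (highest −0.04).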
